A study of Schizosaccharomyces pombe with 2 samples.

Results

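The genes *hsp9*, *ish1*, *ddr48*, *sod2* and *rtc3* are stress-induced genes of fission yeast whose transcripts were lower in nitrogen-starved cells lacking Lsg1. They are 5 of the 4997 features of the array and 5 of the 64 genes that the study lists as lowered in this strain. They were taken from that list, which ends at a log2 ratio of -1 in the deposited table of normalized values. That their ratios are below 0 was therefore fixed by the choice and is described here without any test. The 2 strains were *lsg1Δ* (JT659, h90 lsg1::kanR ade6-M216 leu1), in which a drug-resistance cassette stands in place of the whole *lsg1* ORF, and wild-type (JY450, h90 ade6-M216 leu1). Both are homothallic haploids with the same adenine and leucine markers. Each was grown in minimal medium to mid-log phase and then starved of nitrogen for 2.5 h by the sample titles, although the treatment label gives 2 h. A single-color array was hybridized with the RNA of either strain, 1 array in each case, so differences between the strains cannot be told apart from differences between 2 cultures or 2 arrays, and no p-value is given.

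Lsg1 is the γ subunit of CTDK-I, the kinase that phosphorylates serine-2 of the C-terminal repeats of RNA polymerase II. Fission yeast answers heat, osmotic shock, oxidants and starvation through the MAP kinase Sty1 and the transcription factor Atf1, which switch on a shared set of protective genes, the core environmental stress response. The same kinase also takes part in the switch from growth to mating when nitrogen runs out. The study asked which genes depend on CTDK-I in starved cells.

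Each feature carries 7 probes, with 1 exception among the 4997, and each probe is printed at 2 spots. The median scanned intensity over the 69954 spots was 5685.5 for *lsg1Δ* and 6737 for wild-type, and the median spot had a log2 ratio of -0.22 before normalization. Ratios below are log2 of *lsg1Δ* over wild-type after normalization, and a ratio is followed by the SD over the probes of its feature. This is a technical spread and says nothing of variation between cultures. The *lsg1* feature, which checks the deletion, had a median scanned intensity of 197 in *lsg1Δ* and 3309 in wild-type. Of its probes, 0 in *lsg1Δ* and 7 in wild-type were above the lowest 5% of spots. The files name features by array identifiers. Genes were named by matching ratios in the deposited table, in which *hsp9* is TI4896S004940, *ddr48* is TI4896S003798, *ish1* is TI4896S001919, *sod2* is TI4896S004083 and *rtc3* is TI4896S002479.

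Transcripts of all 5 genes were lower in *lsg1Δ* cells, on every one of their 35 probes and at all 70 pairs of spots. For comparison, every probe was lower for 16.9% of all features. Expression was lower by more than 2-fold for *ddr48*, *hsp9* and *ish1*, which makes 3 of the 5, while 1.06% of all features passed that threshold in the same direction and 0.34% in the other. This share gives the scale only, since the genes were chosen by the same contrast. The fall was largest for *ddr48*, whose level in *lsg1Δ* was 30.3% of that in wild-type, followed by *hsp9* at 39.9%. The *ish1* and *sod2* genes stood at 49.8% and 50.1%, on either side of the 2-fold threshold. The smallest fall was that of *rtc3*, at 55.5% of the wild-type level.

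**Figure D1:**
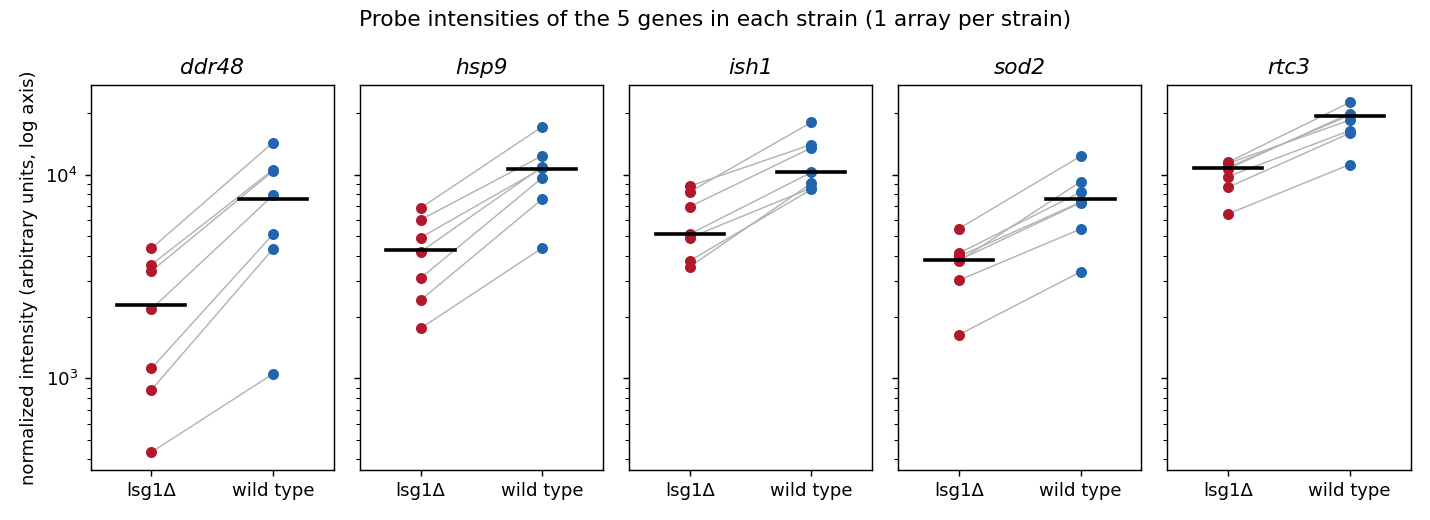
Normalized intensity (arbitrary units, log axis) of each probe of the 5 genes in *lsg1Δ* (red) and wild-type (blue), 1 array per strain. Gray lines join the same probe in both strains and black bars mark the level of the gene summarized over its 7 probes; every line rises toward wild-type.

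The gene with the largest fall, *ddr48* (SPAC23H3.15c), takes its name from the *S. cerevisiae* gene DDR48, which is induced by DNA damage and by heat. Its 7 probes start between bases 1 and 907 of the target on the array, counted as the scanner files list them. In order of start, their scanned intensities were 807, 1227, 1449.5, 2428, 3490, 4409 and 3728 in *lsg1Δ*. In wild-type the same probes gave 1677.5, 5212, 6039.5, 9088.5, 11736.5, 15957.5 and 11899. Both arrays thus showed the same gradient, dim toward the start and bright toward the end, and each probe was dimmer in *lsg1Δ*. After normalization the level of the gene was 2288 in *lsg1Δ* and 7562 in wild-type, and 2 of the 7 wild-type probes lay below the brightest *lsg1Δ* probe. The log2 ratio was -1.72 (SD 0.36 over 7 probes), a 3.31-fold fall.

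The fall of *ddr48* was uneven along its target. The probe at base 1 had a log2 ratio of -1.28, but in *lsg1Δ* it was below the lowest 5% of spots of its array, the only such value among the probes of the 5 genes. The next probes, at bases 167 and 270, had the largest falls, -2.30 and -2.19. Farther along, at bases 399, 562, 668 and 907, the ratios were -1.85, -1.63, -1.72 and -1.55. Apart from the dim first probe, the falls were thus larger at the dimmer probes near the start than at the brighter ones farther along. Its probe SD was larger than that of 95.8% of all features. Without the first probe the log2 ratio is -1.79.

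The *hsp9* gene (SPAP8A3.04c, also called *scf1*) encodes a small heat-shock protein related to Hsp12 of *S. cerevisiae*, and is a member of the core environmental stress response. By probe, scanned intensities in *lsg1Δ* were 5927.5, 6785.5, 4927.5, 3297, 2034, 2645.5 and 4254.5. In wild-type they were 13862, 18987, 12092.5, 10930, 5289.5, 8736 and 12277. The brightest *lsg1Δ* probe exceeded only the dimmest wild-type probe, before and after normalization, and the order of the probes was nearly the same on both arrays (Spearman 0.96 across 7 probes). After normalization the level was 4264 in *lsg1Δ* and 10685 in wild-type. The log2 ratio was -1.33 (SD 0.23 over 7 probes).

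The *hsp9* probes all start within 49 bases of each other, at bases 94 to 143. They therefore read nearly the same stretch of the transcript and are not independent looks at it. Within it the ratios ran between -1.65, at base 135, and -1.04, at base 94. Neighboring probes could differ nearly as much, since those at bases 108 and 113 had ratios of -1.13 and -1.64. The spots of the probe at base 127 differed most, with ratios of -1.58 and -1.04 at its first and second spot. Over all probes of the array, the median difference between the ratios of the 2 spots was 0.17, against 0.20 for the 35 probes of the 5 genes.

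The *ish1* gene (SPBC365.12c) encodes a nuclear envelope protein of the LEA type, induced when nutrients run out. Its probes start at bases 556 to 1745. Scanned intensities ran from 3643 to 8495, with a median of 5110, in *lsg1Δ*. In wild-type they ran from 9681.5 to 19765, with a median of 11563. Before normalization no wild-type probe was as dim as the brightest *lsg1Δ* probe, and after it 2 were. The normalized level was 5102 in *lsg1Δ* and 10239 in wild-type, for a log2 ratio of -1.005 (SD 0.23 over 7 probes). Of its probes, 4 were past 2-fold. The largest and smallest falls came from neighboring probes, -1.36 at base 1132 and -0.68 at base 1014, so the ratio did not change steadily along the target.

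The *sod2* gene (SPAC1486.01) encodes the mitochondrial manganese superoxide dismutase, which turns superoxide into hydrogen peroxide. The name was also used for the sodium/proton antiporter gene now called *nhe1*, which is another locus. By probe, from base 14 to base 539, scanned intensities in *lsg1Δ* were 1922, 4060.5, 3903.5, 5423, 3867.5, 3195.5 and 4191. In wild-type they were 4160, 8458.5, 8389, 13753, 10475, 6378 and 9416. Before normalization 1 wild-type probe, the first, was dimmer than the brightest *lsg1Δ* probe, and after it 2 were. The normalized level was 3812 in *lsg1Δ* and 7603 in wild-type, and the log2 ratio was -0.996 (SD 0.16 over 7 probes). Its 3 probes past 2-fold were those at bases 14, 238 and 422, with ratios of -1.02, -1.18 and -1.29. The last probe, at base 539, lay just short of it.

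The *rtc3* gene (SPBC21C3.19) encodes a small protein of the SBDS family, named after RTC3 of *S. cerevisiae*. It was the brightest of these features on its own array, although intensities of different features also reflect the affinity of their probes. Scanned intensities ran from 6307 to 11036.5, with a median of 10274, in *lsg1Δ*. They ran from 12668.5 to 24608.5, with a median of 20391, in wild-type. These ranges did not overlap before normalization, and after it 1 wild-type probe lay below the brightest *lsg1Δ* probe. The normalized level was 10784 in *lsg1Δ* and 19433 in wild-type. The log2 ratio was -0.85 (SD 0.09 over 7 probes), and 0 of its probes were past 2-fold. Its probe SD was larger than that of only 11.2% of all features. However, 6 of its probes start between bases 59 and 89, so most of them read nearly the same stretch. The last probe, at base 261, is apart from them and had a ratio of -0.88, within the range of the others (-0.98 to -0.71).

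**Figure D2:**
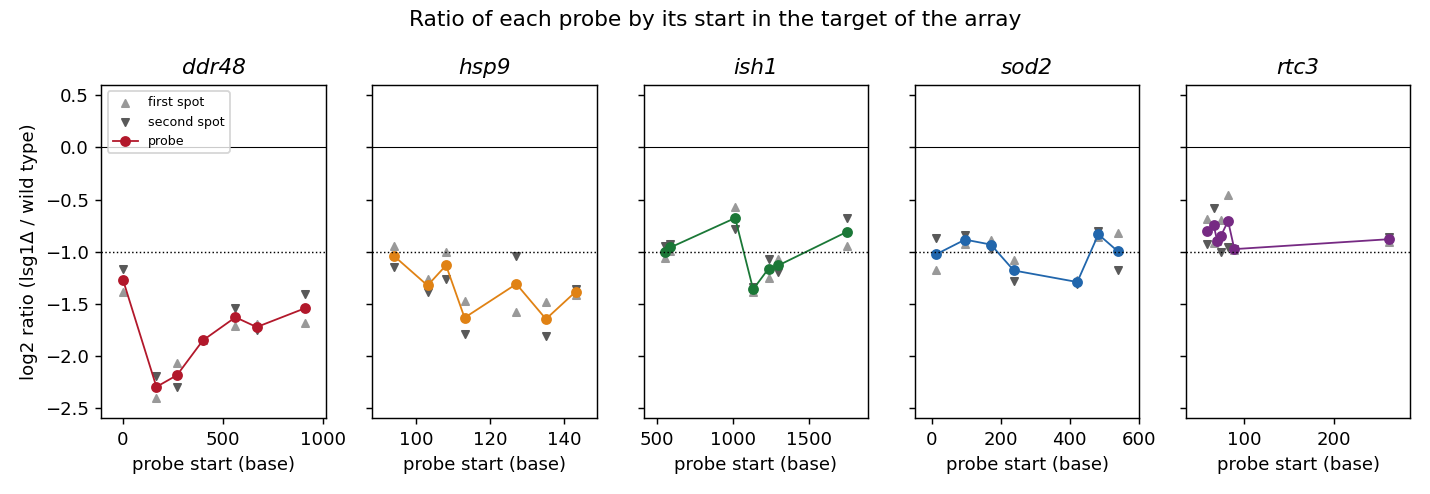
Log2 ratio (*lsg1Δ* over wild-type) of each probe against its start base in the array target, with triangles for its 2 spots; the dotted line marks a 2-fold fall and the scale of the start base differs between panels. The ratios of *ddr48* lie between -2.30 and -1.28 and those of *rtc3* between -0.98 and -0.71, and the *hsp9* probes start within 49 bases.

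On this pair of arrays the measured fall differed in size among the 5 genes. The probe ranges and probe SDs set beside it are technical, and the probes of *hsp9* and most of those of *rtc3* read nearly the same stretch. Such ranges and SDs cannot show whether the genes would differ in the same way in other cultures. The probe ratios of *ddr48* and of *hsp9* did not overlap those of *rtc3*, and their summarized log2 ratios were 0.88 and 0.48 below it. Between neighbors in the order, the gap of *ddr48* to *hsp9* was 0.40 and that of *hsp9* to *ish1* was 0.32, which is 1.33 and 1.40 times the pooled probe SD of the pair. The probe ratios overlapped in both pairs. The *ish1* and *sod2* genes differed by 0.0088, far less than their probe spread, and their order was turned round in 5 of 11 other settings, among them odd-numbered probes alone and the deposited table. In all 11, *ddr48* had the largest fall, *hsp9* the next and *rtc3* the smallest.

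In the deposited table of normalized values, the same falls were larger for all 5 genes. The value of *ddr48* there was 975.68 in *lsg1Δ* and 4864.16 in wild-type, a log2 ratio of -2.32. The value of *hsp9* was 2392 in *lsg1Δ* and 8487.53 in wild-type (log2 ratio -1.83). For *ish1* it was 3376.45 in *lsg1Δ* and 8502.9 in wild-type (-1.33). For *sod2* it was 2255.22 in *lsg1Δ* and 5754.29 in wild-type (-1.35), and for *rtc3* 8268.89 in *lsg1Δ* and 17472.2 in wild-type (-1.08). All 5 are thus past 2-fold in that table, where 1.28% of features are, as they had to be to enter the study's list. How these values were normalized is not stated in the sources read. Deposited minus scanned, the log2 ratios differed by -0.59 for *ddr48* and by -0.23 for *rtc3*, with the others between, in each case by more than the probe SD of the gene. With the RMA background adjustment, *sod2* also passes 2-fold (-1.10), and without background correction *ish1* does not (-0.94). The features just inside and just outside the limit of that list had deposited log2 ratios of -1.005 (SPAC27D7.10c) and -0.995 (unnamed here). With the processing used here they stood at -0.80 and -0.77, smaller falls than that of *rtc3*.

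**Figure D3:**
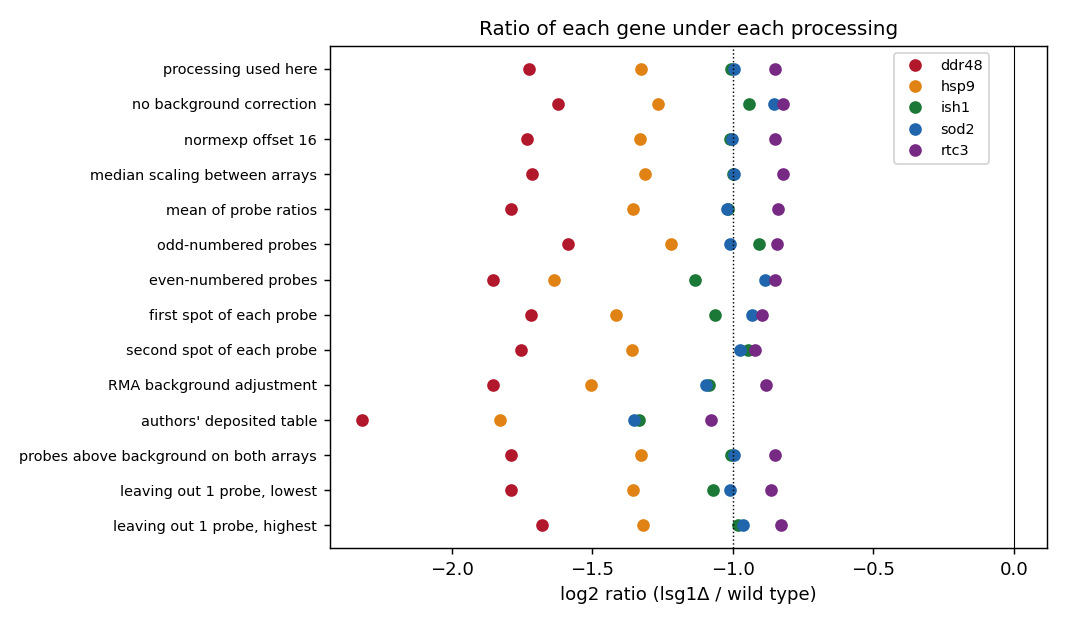
Log2 ratio (*lsg1Δ* over wild-type) of each gene with the processing used here (top) and under each alternative, including the lowest and highest value on leaving out 1 probe; the dotted line marks a 2-fold fall. The order *ddr48*, *hsp9*, then the other 3 genes holds in each row, and *rtc3* passes 2-fold only in the deposited table (-1.08).

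Among all 4997 features ranked from the largest fall, *ddr48* was at place 18, *hsp9* at 28, *ish1* at 52, *sod2* at 54 and *rtc3* at 68. Over all features the median log2 ratio was 0.01, with 5th and 95th percentiles of -0.42 and 0.42. The median over the 5 genes was -1.005, and that over the other 59 genes of the study's list was -1.22, with a range of -4.22 to -0.68. Those 59 include the deleted gene *lsg1* itself, at -4.13. By the paper, many genes of its list were already known to be controlled by Ste11. The *ddr48* and *hsp9* ratios lay below the median of those 59 and the other 3 above it, and whether the 5 differ from them was not tested. The genes nearest to them in log2 ratio on these 2 arrays were SPCC794.04c and *spk1* for *ddr48* (differences of 0.05 and 0.11), SPACUNK4.17 and *sxa2* for *hsp9* (0.0002 and 0.03), and *byr1* and *bcp1* for *rtc3* (0.03 each). For *ish1* they were SPBC839.18c and *pdc201* (0.0057 and 0.03), and these were also nearest to *sod2* (0.01 and 0.02). The transcription factor gene *ste11* had a log2 ratio of -1.41 (SD 0.15), between those of *ddr48* and *hsp9*.

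In starved wild-type cells the features of all 5 genes were brighter than the median feature. This is not particular to them. The median share of features exceeded in wild-type was 72.0% for the 5 and 64.0% for the other 59 genes of the study's list. The level of *rtc3* exceeded that of 74.3% of features in *lsg1Δ* and 90.9% in wild-type, so it was among the brighter features in both strains. For *hsp9* these shares were 37.1% in *lsg1Δ* and 73.5% in wild-type, and for *ish1* 43.6% in *lsg1Δ* and 72.0% in wild-type. The *sod2* level exceeded that of 33.4% of features in *lsg1Δ* and 60.7% in wild-type. The *ddr48* level moved farthest, exceeding 18.2% of features in *lsg1Δ* and 60.4% in wild-type. All but *rtc3* were thus below the median feature in *lsg1Δ*. The other 59 genes of the list had a median normalized level of 3505 in *lsg1Δ*, also below that of all features (5898). Over all features, the share past a 2-fold fall was 1.52% in the dimmest of 4 equal groups by mean level and 0.72% in the brightest. None of the 5 genes lay in the dimmest group. No spot of the 5 genes was saturated, and 34 of 35 probes in *lsg1Δ* and 35 of 35 in wild-type were above the lowest 5% of spots.

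**Figure D4:**
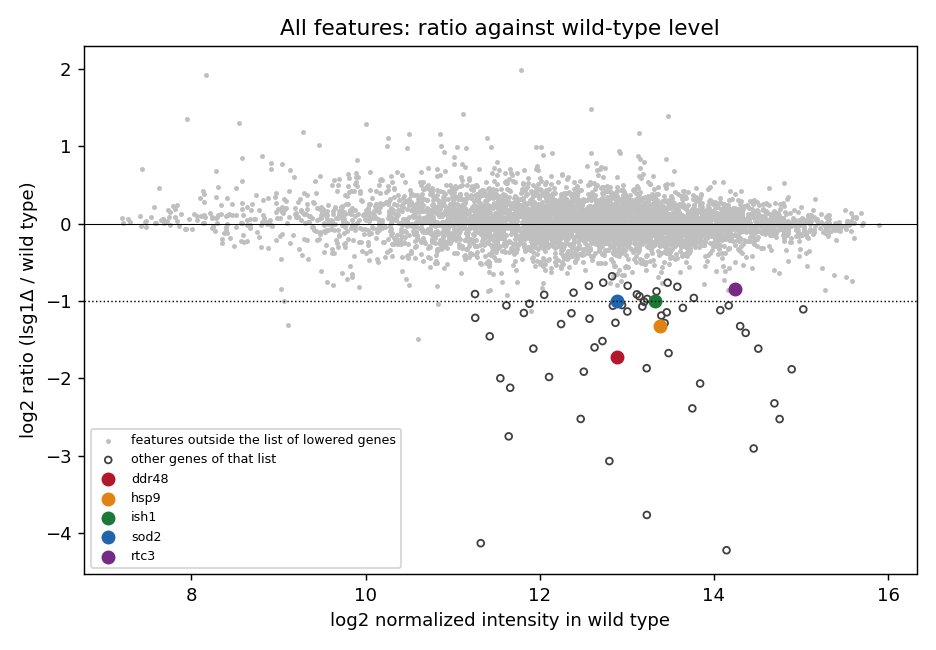
Log2 ratio (*lsg1Δ* over wild-type) against log2 normalized intensity in wild-type for all 4997 features, with the 5 genes in color and the other 59 genes of the study's list as open circles; the dotted line marks a 2-fold fall. All 5 genes lie on the brighter side of the median feature in wild-type, between ratios of -1.72 and -0.85. The median level of the other 59 genes lies on that side too.

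No ratio can be given for any other gene of the stress response lists used here. Of 14 genes of oxidative defence, *sod2* is the 1 with a name here, and the other 13 are not named. Its log2 ratio of -0.996 was just short of 2-fold, which it passed in the deposited table (-1.35). Of 13 heat shock and chaperone genes, *hsp9* is the 1 named and was lower by more than 2-fold. Of 12 genes of osmotic and starvation stress, *ish1*, *ddr48* and *rtc3* are named, and all but *rtc3* passed 2-fold downward. None of 16 genes of the stress MAP kinase pathway, Sty1 and Atf1 among them, is named here. For *atf1*, *pcr1* and other upstream regulators of *ste11*, the paper reports no significant effect of losing *lsg1*. It gives this with its array comparison of the same 2 strains and names no test for it. The values of those regulators were not read here. The other 50 of the 55 genes were not identified among the features, because only the 64 genes of the list could be named and all of them were chosen as lowered. In the deposited table those 64 are all the features lower by more than 2-fold, 1.28% of the 4997. Any of the 50 that are on the array therefore did not fall that far in that table. Smaller falls or rises among them cannot be seen here. These counts therefore say nothing of the direction of the stress response as a whole.

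In the RefSeq annotation, *ddr48*, *ish1* and *sod2* overlap the coding genes *avl9*, *grp2* and *dsc2*, and all 5 genes overlap at least 1 noncoding RNA gene. The sources used here do not state which strand the probes read, and what an overlapping gene adds to the signal was not tested. Apart from nitrogen starvation no stress was applied to these cells, and no unstarved sample was analysed here, so these values do not show how far each gene was induced in either strain.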

How the data were processed

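RNA of nitrogen-starved *lsg1Δ* and wild-type cells was measured on a pair of arrays, 1 for either strain. The deposited scanner files give spot intensity on a linear scale. Roche Applied Science scanned the arrays for the authors and, by the paper, also did the normalization. A second deposited file gives normalized intensity per feature, and the sources used here do not state how it was normalized. Rows 1 to 4997 of its 9994 recur below as a copy, which was dropped.

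Processing of the scanned values used limma 3.58.1 (R 4.3.3), with normexp background correction (offset of 50) and quantile normalization of the spots. Log2 values of the 2 spots were averaged per probe, and median polish over the probes gave the level of a feature. Tables were computed with pandas 2.3.3 and numpy 2.4.6 and plots drawn with matplotlib 3.10.9. Past 2-fold means a log2 ratio below -1. No test can be made without replicates, and the number of arrays limits precision. A probe counted as above background when the mean of its spots was brighter than the dimmest 5% of spots (912 for *lsg1Δ*, 1108.65 for wild-type), which is not a detection limit. The steps were also run on a simulated pair, made from the wild-type array with the noise of duplicate spots and known falls in some features. That pair holds no differences between cultures and no rises, and no result here rests on it.

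Genes were named where the ratio in the deposited table matched that of the study's list within 5e-05 (largest difference 2.11e-05), with rows taken in the order of the sorted feature identifiers. Across features, deposited values in this order correlated with scanned ones at a Pearson r of 0.99 (log2 scale) on both arrays. The names *ddr48*, *sod2* and *rtc3* come from RefSeq (assembly ASM294v3). None of its coordinates is given, since the sources used here name no build for the array. Members and gene lists were chosen with earlier results of these data known. Named genes are the 5 members, *lsg1*, *ste11*, the 2 listed genes nearest to each member in ratio, and the members of the gene lists. SPAC27D7.10c and the overlapping genes were named after their values were seen. Probe, promoter and protein sequences were not used here.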

Additional observations from a re-analysis of the deposited data

How the results depend on the processing

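No paired analysis was possible because there is a single array for either strain. The 10 alternative processings planned, the leaving out of each probe and 1 setting chosen after seeing the data (probes above background on both arrays) were run. Of 65 values for the 5 genes, 0 changed sign, 59 differed from the reported value by less than the probe SD, which measures the scatter of probes and is no error of the ratio, and 6 were larger falls. These were *hsp9* with even-numbered probes (-1.64) and, in the deposited table, *ddr48* (-2.32), *hsp9* (-1.83), *ish1* (-1.33), *sod2* (-1.35) and *rtc3* (-1.08); the causes were not tested. Every probe and every pair of spots of the 5 genes was lower in *lsg1Δ*, so no subset of probes or spots could change the sign. The deposited table could not change it either, since the genes were chosen from it. All settings use the same pair of arrays and say nothing of other cultures. The median over the 5 genes, -1.005, was -1.35 in the deposited table. Of the 5 genes, 3 were past 2-fold, against 5 in the deposited table and 5 at a 1.5-fold threshold, and 2 to 4 in the other settings. Of 13 values each, 13 were below -1 for *ddr48* and for *hsp9*, 8 for *ish1*, 6 for *sod2* and 1 for *rtc3*. Of all features, 53 were lower and 17 higher by more than 2-fold, against 123 and 99 at 1.5-fold. With no background correction 39 were lower and 6 higher. Motif counts in promoters were not run, since no sequence was used. Low signal limits the first *ddr48* probe.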
